A study of Drosophila melanogaster with 12 samples.

Results

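Regions of elongating RNA Polymerase II (Pol II) in AGO2 knockdown (AGO2 KD) cells were compared with those of mock-treated cells, gene by gene. Chromatin immunoprecipitation and sequencing (ChIP-seq) had been done in Kc167, a *Drosophila melanogaster* line labelled female and derived from embryonic hemocytes, the blood cells of the fly, with an antibody to Pol II phosphorylated on serine 2 (S2). The AGO2 KD group was transfected with 100 pmol of siRNA against AGO2 and the mock group with neither siRNA nor dsRNA, and both were collected 3 days later, with 2 replicates each. A LaminB knockdown (LaminB KD), transfected with 2 µg of dsRNA, served the study as a control for specificity and is given beside some values. These 4 AGO2 KD and mock libraries were 4 of 12 in the series, 6 of which came with a list of called regions. Nothing in the labels says how the replicate cultures were separated, so the spread between replicates may be technical.

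Pol II is phosphorylated on serine 5 of its C-terminal repeats near the start of a gene and on serine 2 as it is released from the promoter-proximal pause and moves through the body of the gene, so S2 marks productive elongation. Argonaute2 is best known as the slicing enzyme of the siRNA pathway and is also found on chromatin at fly promoters. The study depleted it to ask whether it alters Pol II along genes. For each of 13968 protein-coding genes the percent of bases between gene start and gene end that lay inside called regions, the gene body coverage, was computed in each list. Coverage is the extent of called regions and not an amount of Pol II.

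The AGO2 KD lists stood apart from all others and from each other. They held 4122 and 6534 regions that covered 3.07 and 7.20 Mb, against 7795 and 7957 regions and 13.0 and 12.7 Mb in mock. Regions with a fold enrichment over input of 3 to 3.5 had a median −log10 p of 4.11 and 6.49 in AGO2 KD, against 14.7 and 14.5 in mock and 9.87 and 11.6 in LaminB KD. A region of like fold thus had less statistical support in AGO2 KD. The lowest fold of a called region was 2.08 and 1.75 in AGO2 KD, against 1.43 and 1.41 in mock. In the loss of called length, a lower depth of the IP or input libraries cannot be told apart from less S2 Pol II. Genes were therefore set against genes of like mock coverage within the same AGO2 KD list, so that a gene was read against the general loss in that list. This does not remove a loss that depends on fold. Both AGO2 KD values are given throughout, since AGO2 KD 1 covered the least.

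Hemocyte markers were partly covered. The GATA factor *srp* was covered to 20.2% and 47.3% in AGO2 KD, against 65.4% and 63.5% in mock. *Hml*, the clotting factor hemolectin, was covered to 0% and 10.3% in AGO2 KD, against 73.7% and 75.3% in mock. Of 11 such markers 8 had a region in both mock lists, and *He*, *NimC1* and *eater* were at 0 in all lists. Of 8 markers of neurons, muscle, germ line, fat body and gut, 6 were at 0 in all lists, and *elav* and *vas* had regions in both groups.

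Coverage fell in most genes. A region was present in both mock lists in 7174 genes, and 5874 of these had a mean mock coverage of at least 10% and were compared. In 4848 of them, or 82.5%, both AGO2 KD values lay below both mock values, and in 0 did both lie above. This count reads the general loss of called length and singles out no gene. AGO2 KD 1 had no region in 2202 of the 5874 genes and AGO2 KD 2 in 635, with 630 at 0 in both lists. Of 13.0 Mb of gene bases covered in either mock list, 20.6% and 48.5% were retained in AGO2 KD (34.5 ± 19.7%, SD, n = 2), against 70.7% and 69.5% in LaminB KD. The mock lists themselves held 90.3% and 88.7% of these bases, which they define.

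How much coverage remained depended on how much there had been. Genes covered to 10 to 20% in mock had a median coverage of 0.694% and 7.46% in AGO2 KD. For genes covered to 50 to 60% in mock the medians were 5.03% and 21.5% in AGO2 KD. The 1495 genes covered to 100% in both mock lists had medians of 29.7% and 98.1% in AGO2 KD, and of 100% in both LaminB KD lists. These fully covered genes were the group in which the AGO2 KD replicates differed most. In AGO2 KD 1, 346 of them were at 0 and 322 at 90% or more, whereas in AGO2 KD 2 only 29 were at 0 and 829 at 90% or more. In LaminB KD 1288 and 1296 were at 90% or more.

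**Figure D1:**
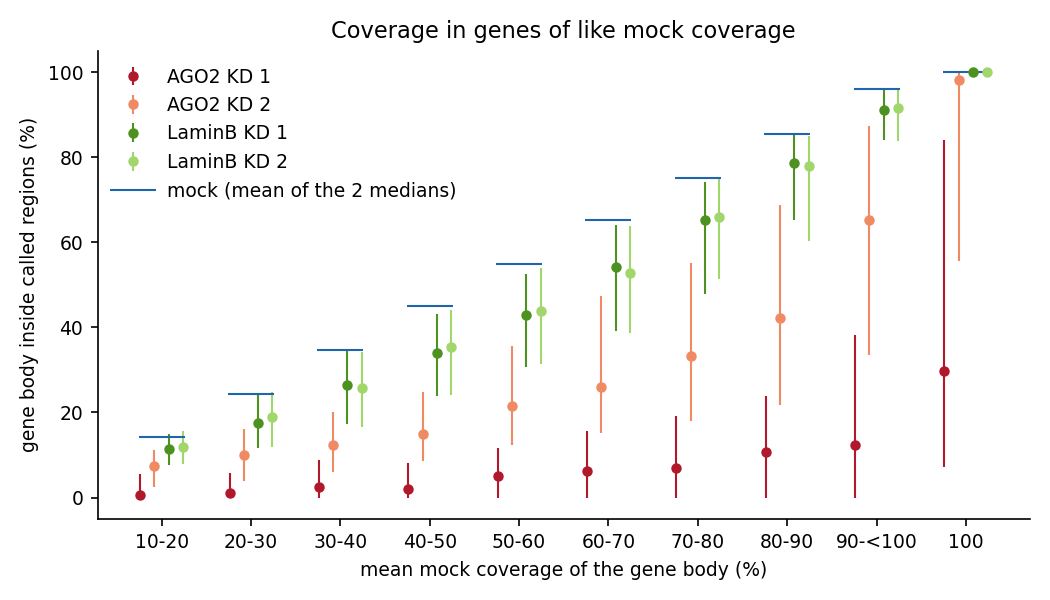
Median gene body coverage (%, y axis) by mean mock coverage of the gene (%, x axis) in each AGO2 KD and LaminB KD list, with bars from the lower to the upper quartile of genes; blue lines are mock. Medians of AGO2 KD 1 stay at or under 12.3% until genes are fully covered in mock, where they reach 29.7%, and those of AGO2 KD 2 reach 98.1%.

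The excess of a gene was defined as its coverage in an AGO2 KD list minus the median coverage, in that list, of genes of like mock coverage. A gene was called kept with an excess of at least 20 percentage points in both AGO2 KD lists and lost with an excess of at most −20 points in both. Like-gene medians exceeded 20% in both AGO2 KD lists only for the fully covered genes, where the median of AGO2 KD 2, at 98.1%, left no room for a gain. Kept calls were thus possible only in the 4379 genes not fully covered in mock and lost calls only in the 1495 fully covered genes. Kept genes numbered 299, or 6.83% of the 4379, and lost genes 279, or 18.7% of the 1495. None of the 706 genes covered to 10 to 20% in mock or the 569 covered to 20 to 30% was kept. An excess of 20 points in AGO2 KD 2 would exceed their mean mock coverage. The shares of kept and lost genes are thus not on a like footing. Leaving out AGO2 KD 1 gave 665 kept and 1007 lost genes, and leaving out AGO2 KD 2 gave 1029 kept and 412 lost genes. Lists were also cut to an equal covered length, by keeping whole regions by falling fold up to the length of the shortest list. At this equal covered length in every list only 40 genes were kept and 142 were lost. With a −log10 q of at least 2 for each region, no gene was lost. A second measure, chosen after the values were seen, was used for fully covered genes. These stayed when they were covered to at least 90% in both AGO2 KD lists, which 322 genes, or 21.5%, did. AGO2 KD 1 alone also gave 322, and AGO2 KD 2 alone gave 829. AGO2 KD 1 thus set this measure, and counts of genes that stayed read that 1 list.

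The depleted genes and the example gene of the study are given first. *AGO2* (chromosome 3L, 15554113 to 15561042, plus strand, dm6) was covered to 4.39% and 18.4% in AGO2 KD, against 55.7% and 33.2% in mock. Its mean was 11.4 ± 9.88% in AGO2 KD and 44.5 ± 15.9% in mock (SD, n = 2 each). That is close to its like genes, with an excess of 2.43 and 3.32 points. An siRNA acts on the RNA, so regions over the gene are no check of the depletion. *Lam*, which encodes the B-type lamin, was covered to 24.6% and 77.6% in AGO2 KD, against 85.5% and 83.1% in mock.

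*Socs36E*, a feedback inhibitor of JAK-STAT signalling, lies on chromosome 2L (18138675 to 18152417, minus strand) and is overlapped by 1 other gene. It was covered to 56.3% and 79.95% in AGO2 KD, against 69.1% and 64.7% in mock, so the groups overlapped. Its mean was 68.1 ± 16.7% in AGO2 KD and 66.9 ± 3.12% in mock (SD, n = 2 each). The excess over like genes was 50.2 and 53.9 points, which placed it at percentiles 98.0 and 99.8 of the genes of like mock coverage. It was picked by the study for its response and is no independent example.

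The 10 most strongly kept genes, among those of 1 kb or more that overlap no other gene, had nearly their mock coverage in AGO2 KD 2 and at least 55.4% in AGO2 KD 1. *Xrp1*, a bZIP transcription factor of the stress response, was covered to 65.4% and 85.3% in AGO2 KD, against 88.4% and 87.4% in mock. *Rho1*, the small GTPase that directs the actin cytoskeleton, was covered to 66.98% and 75.4% in AGO2 KD, against 81.2% and 78.3% in mock. *l(1)10Bb*, the fly counterpart of the splicing factor BUD31, had 61.3% and 67.9% in AGO2 KD, against 70.6% and 68.3% in mock. All 3 lay below both mock values and far above the like-gene medians of 6.15% to 10.7% in AGO2 KD 1. *CD98hc*, the heavy chain of amino acid transporters, had 64.7% and 82.5% in AGO2 KD, against 87.8% and 84.1% in mock. The others were *CG15602*, *hng2*, *CG11164*, *nmd*, an AAA ATPase, *Nurf-38*, the pyrophosphatase subunit of the NURF remodelling complex, and *RpL19* of the large ribosomal subunit.

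The 10 lost genes of the same rule were covered to 100% in both mock lists and were at 0% in AGO2 KD 1. Many genes tie at this floor, and ties were broken by gene length. *Cubn*, an endocytic receptor and at 12644 bp the longest, was covered to 0% and 19.6% in AGO2 KD, and to 83.1% and 63.8% in LaminB KD. *ValRS*, the valyl-tRNA synthetase, had 0% and 11.8%. *mbo*, the nucleoporin Nup88, had 0% and 26.0%. *Ing3*, a chromatin protein of the ING family, had 0% and 8.51%. *dwg*, a zinc finger protein, had 0% and 23.3% in AGO2 KD and 100% in both LaminB KD lists. The remaining 5 were *CG2202*, *Ns3*, *CG5886*, *Wdr37* and *ZC3H3*, with 13.0% to 63.6% in AGO2 KD 2. These 10 genes thus had a region over a part of the gene in AGO2 KD 2.

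**Figure D2:**
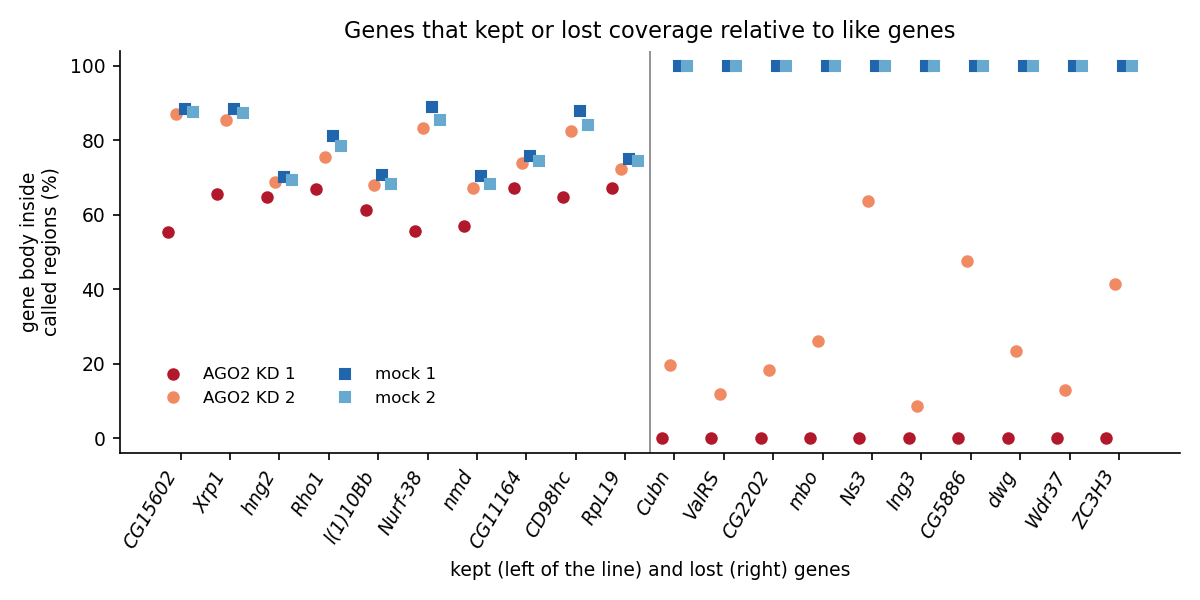
Gene body coverage (%, y axis) of the 10 kept genes, left of the line, and the 10 lost genes, right of it, in AGO2 KD 1 and 2 (circles) and mock 1 and 2 (squares). The 10 lost genes are at 0% in AGO2 KD 1 and at 100% in both mock lists, while the kept genes lie between 55.4% and 67.2% in AGO2 KD 1.

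Fully covered genes separated by their fold enrichment in mock. They were divided into 5 groups of 298 to 300 genes by the highest fold of a region over the gene, averaged over the mock lists. In the lowest group the median coverage was 0% and 56.6% in AGO2 KD, 5 genes stayed and 134 were lost. In the highest group the medians were 91.3% and 100%, 154 genes stayed and 11 were lost. The share that stayed was 1.67%, 5.35%, 21.1%, 28.0% and 51.7% over the 5 groups by rising fold, beside 21.5% in all. The share lost was 44.8%, 22.7%, 14.4%, 7.67% and 3.69%, beside 18.7% in all. Regions of lower fold lie nearer to the calling threshold, and how much of the pattern comes from calling was not tested.

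**Figure D3:**
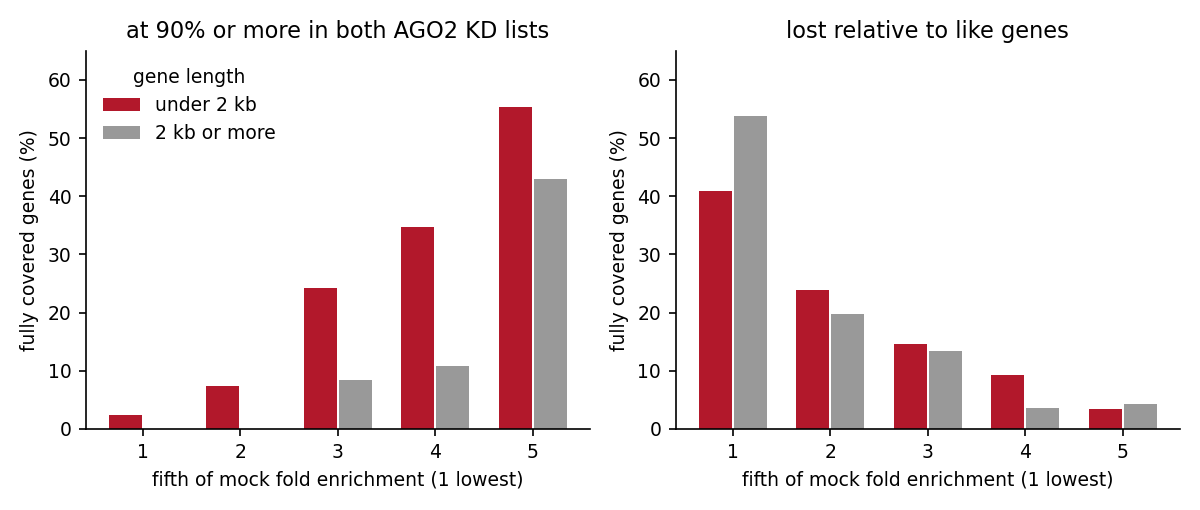
Share of fully covered genes (%, y axis) that stayed at 90% or more in both AGO2 KD lists (left panel) or were lost relative to like genes (right panel), by 5 groups of rising mock fold enrichment (x axis), for genes under 2 kb (red) and of 2 kb or more (grey). In the highest fold group 55.3% of the genes under 2 kb and 43.0% of the longer genes stayed.

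Gene functions were described with 34 gene lists. By the call used for lists, a median excess of at least 5 points in the same direction in both AGO2 KD lists, 2 lists stood out and 1 of them, ecdysone response, had only *usp* and *ImpL2* among the genes compared. The other was the nucleoporin list, which was lower. This call cannot be met upwards by lists made up mostly of fully covered genes, since the like genes in AGO2 KD 2 were already at 98.1%. The counts of genes that stayed, and percentile ranks among genes of like mock coverage, were therefore added after the values were seen. The median over all 5874 genes is 50.1 in both lists, and genes at 100% in AGO2 KD 2 share a tied percentile of 76.2.

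Cytoplasmic ribosomal protein genes are described first. Of 86 cytoplasmic ribosomal protein genes 82 were compared and 71 were fully covered in mock, of which 52 stayed, against 322 of 1495 in all. Their median coverage was 100% in both AGO2 KD lists, beside 29.7% and 98.1% for all fully covered genes. Only 16 of the 82 had both AGO2 KD values below both mock values, beside 82.5% of all genes compared, although a gene at 100% in an AGO2 KD list cannot lie below mock. *RpL3* was covered to 93.6% and 100% and *RpS7* to 100% in both AGO2 KD lists, with 100% in both mock lists. The single lost gene, *RpS15Ab*, was covered to 0% and 27.1% in AGO2 KD, against 100% and 100% in mock. It is a near-identical copy of *RpS15Aa*, and since reads that mapped to several places had been removed, its regions are uncertain.

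The ribosomal list also had a high mock fold, with a median of 4.05 beside 2.90 for all genes compared. Set against genes of like mock coverage and of the same part of the mock fold range, its median percentiles were 84.0 and 66.0, and the value in AGO2 KD 2 is the tie of genes at 100%. Its median excess was 70.3 and 1.91 points over genes of like coverage and 14.9 and 0 points when fold was matched as well. The mean of both lists, 36.1 points, was 7.46 with fold matched and 6.85 at equal covered length. Within the highest of the 5 fold groups 33 of 42 ribosomal protein genes stayed, against 121 of 257 other genes. Among fully covered genes of 1 to 2 kb 27 of 40 ribosomal protein genes stayed, against 98 of 675 others. The difference in these counts was thus also seen within the highest fold group and among genes of like length, taken one at a time. That group spans mock folds of 3.77 to 6.39, so fold was not closely matched within it.

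Of 25 fully covered proteasome subunit genes 15 stayed and 0 were lost, beside 21.5% and 18.7% in all. *Rpt1*, an ATPase of the base, and *Prosbeta5*, a catalytic subunit of the core, were covered to 100% in both AGO2 KD lists. *Rpn13*, a ubiquitin receptor, was covered to 29.1% and 79.1% in AGO2 KD, against 100% and 100% in mock. The list median was 94.4% and 100%. In the highest fold group 4 of 7 proteasome genes and 150 of 292 others stayed, and in the group below it 8 of 10 and 76 of 289. Of 20 fully covered chaperone genes 11 stayed and 0 were lost, beside the same 21.5% and 18.7% in all. *Hsc70-4*, the main constitutive Hsp70, was at 100% in both AGO2 KD lists, whereas *Hsp67Ba* was at 0% and 100%. In the highest fold group, however, 9 of 17 chaperone genes and 145 of 282 other genes stayed, so these shares were close to each other there. Of 20 fully covered translation factor genes 9 stayed, beside 21.5% in all. *eEF2* and *eIF4A* were at 100% in both AGO2 KD lists and *eIF2D* was at 0% and 42.9%. Of 8 translation factor genes in the highest fold group 4 stayed, close to the 150 of 291 others. Of 4 fully covered actin and tubulin genes 3 stayed, beside 21.5% in all.

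Of 42 fully covered respiratory chain and ATP synthase genes 8 stayed and 3 were lost. The share that stayed, 19.0%, was near the 21.5% of all fully covered genes, and the share lost was 7.14%, beside 18.7% in all. Their median was 52.6% and 100% in AGO2 KD. *ATPsynC*, the ring subunit of ATP synthase, was at 100% in both AGO2 KD lists, while *RFeSP*, the Rieske iron-sulfur protein, was at 13.5% and 24.3%. Of 42 fully covered mitochondrial ribosomal protein genes 11 stayed and 10 were lost, and the median was 24.0% and 98.8%. These shares, 26.2% and 23.8%, were close to those of all fully covered genes. *mRpL35* was at 0% in both AGO2 KD lists, and *mRpS25* was at 100% in both. The mitochondrial list had a median mock fold of 2.85, close to the 2.90 of all genes compared. Of its fully covered genes of 1 to 2 kb 0 of 15 stayed, against 125 of 700 others, while of those under 1 kb 11 of 27 stayed, against 132 of 345 others. By mock fold 0 of 12 stayed in the lowest group, against 5 of 287 others, and 3 of 5 in the highest, against 151 of 294 others.

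Nucleoporins, the subunits of the nuclear pore, met the call for lower coverage than genes of like mock coverage. The median excess of 26 genes was −7.09 and −10.9 points, and the median percentiles were 34.1 and 34.2. Of 11 fully covered nucleoporin genes 0 stayed and 4 were lost, beside 21.5% and 18.7% of all fully covered genes. *Nup107*, of the Y-shaped scaffold complex, was covered to 0% and 22.9% in AGO2 KD, against 100% and 100% in mock. *Nup154*, of the inner ring, was covered to 29.5% and 38.5% in AGO2 KD, against 100% and 89.6% in mock. *Nup154* thus lay above its like genes in AGO2 KD 1 and below them in AGO2 KD 2, with an excess of 17.2 and −26.7 points. *Nup188* lay above in both, with 20.3% and 60.02% in AGO2 KD, against 49.9% and 60.3% in mock, an excess of 15.3 and 38.5 points. The list had a median mock fold of 2.83, and against genes of like fold its median excess was −7.21 and −7.94 points. The call was not met with a −log10 q of at least 2, where the mean of the list medians was −5.39 ± 7.63 points, or with the first 500 bp left out, where it was −5.66 ± 8.01 points (SD, n = 2 each).

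The transcription machinery did not meet the call. In the list of Pol II, Mediator, TFIID and Integrator subunits 20 of 59 genes compared were fully covered. Of these 20 genes 1 stayed and 7 were lost, beside 21.5% and 18.7% of all fully covered genes. *Polr2F*, a subunit shared by the nuclear polymerases, was covered to 91.7% and 100% in AGO2 KD, against 100% and 100% in mock. *Polr2H*, another shared subunit, was covered to 0% and 3.15% in AGO2 KD, against 100% and 100% in mock. *MED18* of the Mediator head was at 0% in both AGO2 KD lists, against 100% and 100% in mock. The median of the fully covered genes was 14.3% and 75.9%, below the 29.7% and 98.1% of all fully covered genes, but the list's median excess was −2.42 and 1.91 points, with opposite signs, and 0 and 2.48 points with fold matched. Among pausing and elongation factors *Cdk9*, the kinase of P-TEFb that acts on the C-terminal repeats, was covered to 0% and 16.9% in AGO2 KD, against 100% and 100% in mock. *spt4* of the DSIF complex was at 100% in all 4 lists. Of 10 fully covered aminoacyl-tRNA synthetase genes 1 stayed and 4 were lost, beside 21.5% and 18.7% in all, and the median excess of the 28 genes compared was 0.092 and −0.61 points.

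Most other lists held few fully covered genes. Glycolysis had 10 genes compared with a median excess of 4.98 and −11.1 points, of which *Gapdh2* was covered to 80.3% and 83.1% in AGO2 KD, against 100% and 100% in mock. The JAK-STAT list had 7 genes compared with a median excess of 3.803 and −0.74 points, so the excess of *Socs36E* was not seen in the median of its pathway. *hop*, the Janus kinase, was covered to 13.8% and 36.2% in AGO2 KD, against 82.1% and 82.9% in mock. Of the small RNA pathway, 16 genes were compared with a median excess of 1.95 and −1.27 points. Hox genes had no member among the genes compared, and 17 of 230 chemoreceptor and odorant-binding genes did.

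**Figure D4:**
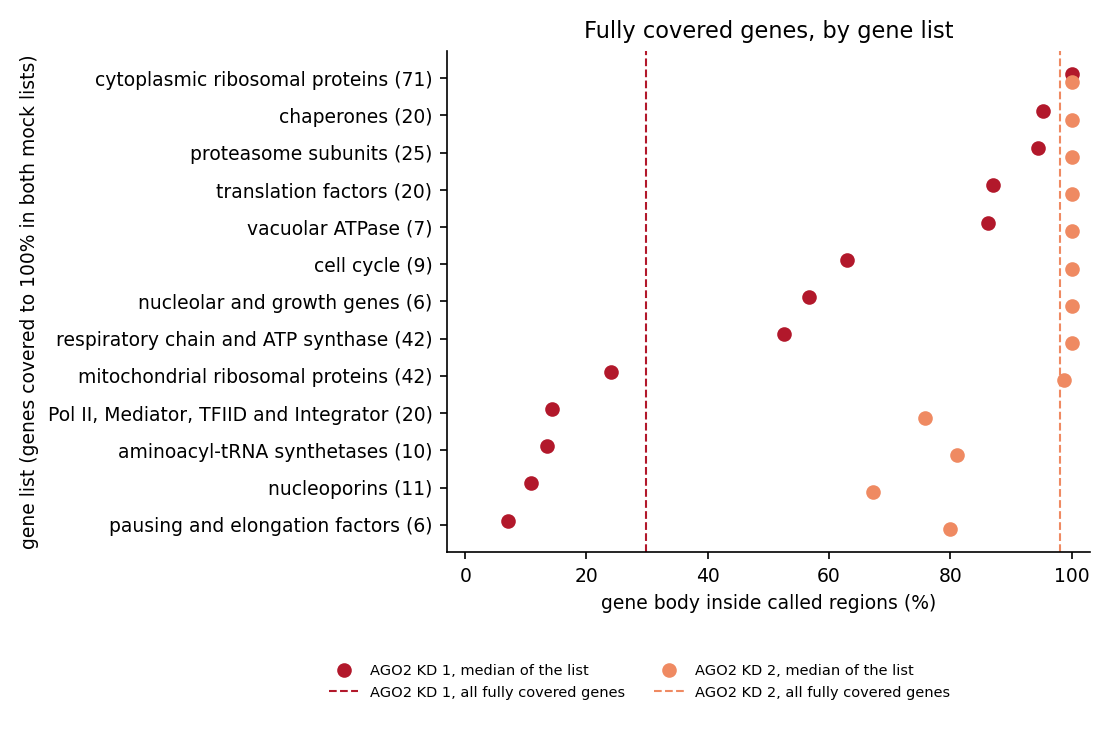
Median gene body coverage (%, x axis) in AGO2 KD 1 (dark red) and AGO2 KD 2 (orange) of genes covered to 100% in both mock lists, for gene lists with at least 5 such genes (number in parentheses, y axis). Dashed lines are the medians of all 1495 fully covered genes, 29.7% and 98.1%; cytoplasmic ribosomal proteins are at 100% in both lists and pausing and elongation factors lowest in AGO2 KD 1.

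Gene length was considered next. The median excess of genes of 10 kb or more minus that of genes under 2 kb was 1.91 points as a mean of the AGO2 KD lists. It reversed to −0.68 without AGO2 KD 1 and to −0.32 among genes of like mock fold, so no direction with length is given. Short genes stayed more often when fully covered. Of 372 fully covered genes under 1 kb 38.4% stayed, of 715 from 1 to 2 kb 17.5% did and of 375 from 2 to 5 kb 13.3% did, beside 21.5% in all. This held in each of the 5 mock fold groups when genes under 2 kb were set against longer ones. In the middle group 58 of 239 shorter and 5 of 60 longer genes stayed. A short gene can lie within 1 region around its start.

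The longest genes covered to at least 80% in both AGO2 KD lists were *Sf3b3*, *AspRS*, *kra*, *B52* and *CG45085*, of 5427 to 6666 bp. *B52*, an SR protein of splicing and the only one that overlaps no other gene, was covered to 92.8% and 89.5% in AGO2 KD, against 98.8% and 98.4% in mock. *Sf3b3*, a subunit of the U2 snRNP, was covered to 82.5% and 84.1% in AGO2 KD, against 85.7% and 85.6% in mock, but 10 other genes overlap it.

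Retention was also read by intron content and by chromosome. Genes of which 30 to 60% is intron had median percentiles of 66.7 and 61.3, whereas genes with introns of up to 10% had 29.5 and 43.2. Among genes of like fold these medians were 56.1 and 57.8, against 41.5 and 48.7. Genes without introns had 42.1 and 54.2 there, and genes with over 60% intron had 51.5 in both lists, so there was no steady rise. The median mock fold of the intron-rich genes was higher, at 3.26 against 2.73. Of 247 fully covered genes on the X chromosome 14.98% stayed and 24.7% were lost, the lowest and highest shares of the chromosome arms with over 1 such gene, beside 21.5% and 18.7% in all. The X had the lowest median mock fold, 2.81. Over its 1009 genes compared, the median percentiles among genes of like fold were 42.6 and 49.8, beside 42.1 and 53.1 on 2L. The X was thus not lowest in both lists there.

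The start of the gene retained more than its end. Among protein-coding genes of 2 kb or more, windows of 500 bp that were covered to at least 50% in both mock lists were followed into AGO2 KD. The first 500 bp were still covered in 45.6% and 82.8% of 3260 genes in AGO2 KD. The next 500 bp were covered in 27.6% and 64.5%, the middle of the gene in 17.1% and 50.2%, and the last 500 bp in 15.9% and 47.3% of 1350 genes. The last window thus lay 32.7 points below the first as a mean of both lists. In LaminB KD the first window was covered in 93.4% and 94.4% and the last in 80.1% and 77.1%, so an end below the start was seen there as well. With equal covered length in every list the AGO2 KD difference was −20.5 points. The 500 bp past the gene end were covered in 22.3% and 55.4% of 1732 genes, slightly above the last 500 bp within the gene. In genes that overlap no other and have none within 2 kb past the end the values were 20.0% and 40.0% of 45 genes past the end, against 19.1% and 55.3% of 47 genes at the end, so a higher value past the end was not seen in both lists.

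The first and last windows were compared within 1068 genes that had both of them covered in both mock lists. In AGO2 KD 471 and 474 of these genes retained the first window only, and 50 and 53 the last only. Both windows were retained in 122 and 453 genes and neither in 425 and 88. In LaminB KD 198 and 222 genes retained the first only and 27 and 27 the last only. The 11 genes that retained only their last window in both AGO2 KD lists included *E2f2*, a repressor of the E2F family, and *TSG101*, of the ESCRT machinery. Regions of neighbouring genes can cover such ends.

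Retention declined steeply within the first 1000 bp. In genes of 5 kb or more that overlap no other gene, bases covered in both mock lists were retained to 63.0% and 90.1% in the first 250 bp in AGO2 KD. From 750 to 1000 bp this was 29.2% and 70.1%, and from 2250 to 2500 bp it was 21.6% and 60.6%. The last 250 bp retained 10.05% and 39.6%. Genes of 2 to 5 kb retained 53.4% and 85.4% in the first 250 bp and 16.4% and 49.5% in the last 250 bp. In LaminB KD the first 250 bp of the longer genes retained 94.7% in both lists and the last 250 bp 78.9% and 62.6%. Bases over 1000 bp from the start were retained less in exons, at 12.2% and 43.1%, than in introns, at 21.2% and 58.0%, in AGO2 KD. In LaminB KD exons retained 75.3% and 72.4% and introns 78.5% and 74.7%. The bases covered in both mock lists were 1.71 Mb in exons and 0.669 Mb in introns. They were not matched for gene, distance from the start or mock fold, and the source of the difference was not tested.

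**Figure D5:**
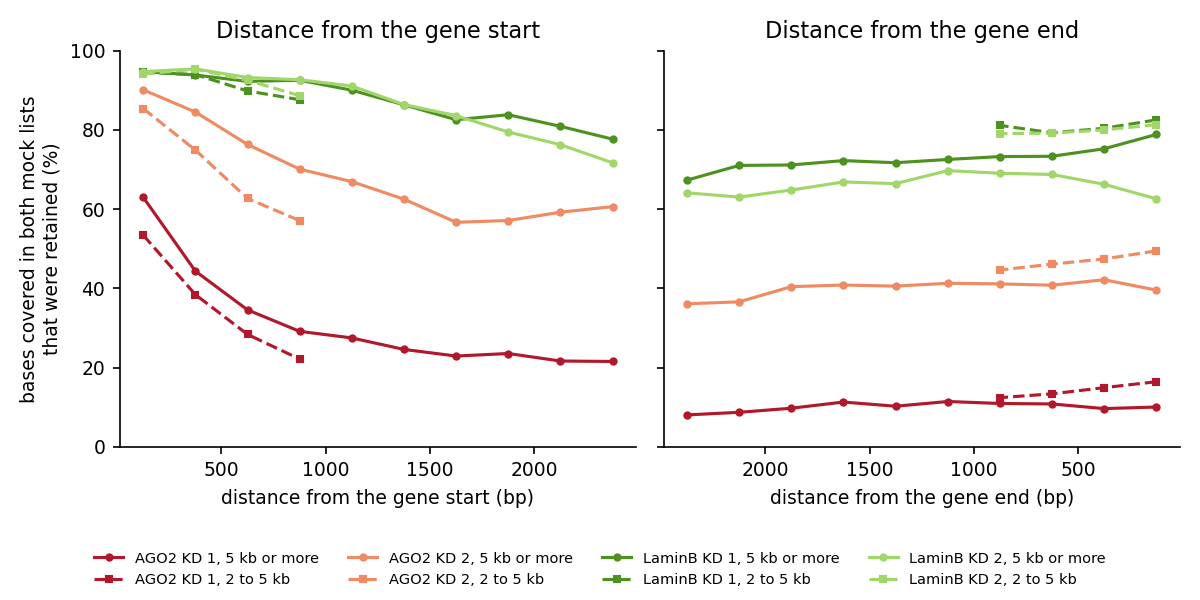
Share of the bases covered in both mock lists that were retained (%, y axis) by distance from the gene start (left) and from the gene end (right) in bp, in windows of 250 bp, for genes of 5 kb or more (solid) and of 2 to 5 kb (dashed) that overlap no other gene. In AGO2 KD 1 the share in longer genes is 63.0% in the first window and 10.05% in the last, and in AGO2 KD 2 it is 90.1% and 39.6%.

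The reach of a region that covers a gene start was measured as the distance from the start to the end of that region, within the gene. In 1951 genes of 2 kb or more whose start was covered in all 4 lists, the median reach was 294 and 595 bp in AGO2 KD, against 1033 and 1015 bp in mock. The means of these medians were 444.5 ± 213 bp in AGO2 KD and 1024 ± 12.7 bp in mock (SD, n = 2 each), a difference of −579.5 bp. Both AGO2 KD lists lay below both mock lists, which gave the lowest p that a two-sided exact permutation of 2 against 2 lists allows, 0.3333, and the design cannot reach significance. At equal covered length the difference was −296.5 bp. The regions that remained there kept their full width, so the extent of single regions was not made equal. Reach was shorter in both AGO2 KD lists than in both mock lists in 1368 genes and longer in 8. A region ran from start to gene end in 1.85% and 5.44% of these genes in AGO2 KD and in 16.4% and 14.4% in mock, over the 1947 genes whose start was also covered in LaminB KD. In genes of 20 kb or more the median reach was 223 and 336 bp in AGO2 KD, against 343 and 357 bp in mock, the smallest difference of the 4 length classes.

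The 8 genes with a longer reach in AGO2 KD were *Ac76E*, *CG11658*, *CG5004*, *Drep4*, *Sdc*, *Socs36E*, *slx1* and *upd3*, named after their values were seen. In *Socs36E* the region reached 2375 and 2536 bp in AGO2 KD, against 2353 and 2341 bp in mock. In *upd3*, which encodes a ligand of the JAK-STAT pathway, it reached 112 and 102 bp in AGO2 KD, against 18 and 85 bp in mock. In *CG5004* it reached 380 and 403 bp in AGO2 KD, against 365 and 342 bp in mock. In *slx1* it reached 375 and 1153 bp in AGO2 KD, against 334 and 221 bp in mock, the largest of these differences.

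Promoter sequence was read because the starts of genes retained the most coverage. Windows from 150 bp before to 30 bp after the annotated start were taken from the RefSeq copy of the dm6 assembly and searched on both strands for 5 motifs, none of which contains another. These were the DNA replication-related element TATCGATA, the E-box CAGCTG, the TATA box TATAAA, the initiator core TCAGT and the GAGA repeat GAGAGA. A motif was counted at any position in the window, so the names stand for these letters only. Short motifs can match by chance, and no chance rate was computed. Genes were ranked by their mean percentile among genes of like mock coverage and divided into 4 groups of equal size. The E-box was present in 13.8% of windows in the group that retained the most and in 20.0% in the group that retained the least, beside 16.8% of all genes compared and 12.9% of all protein-coding genes. The GAGA repeat was present in 7.49% of windows in the highest group and in 4.49% in the lowest, beside 6.23% of all genes compared and 8.56% of all protein-coding genes. The group next to the highest had 8.11% and the kept genes 5.69%, so its share did not rise steadily with retention. The DNA replication-related element did not separate the groups, at 15.5% in the highest and 14.8% in the lowest. It was present in 15.2% of all genes compared and 8.05% of all protein-coding genes. The TATA box letters were present in 29.5% of the highest and 29.8% of the lowest group, beside 29.0% of all genes compared and 31.0% of all protein-coding genes. The initiator core was present in 34.0% of the highest and 29.6% of the lowest group, beside 31.7% of all genes compared and 39.6% of all protein-coding genes. The groups also differed in mock fold. Of 1469 genes in the lowest group 1156 lay below the median mock fold. Of 1469 in the highest group 1152 lay at or above it. Among genes below the median fold the E-box was present in 16.7% of the highest and 20.2% of the lowest group. Among the others it was present in 12.9% and 19.5%.

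All motifs but the GAGA repeat stood in windows of both kept and lost named genes, and the GAGA repeat stood in none of them. Of the windows read for named genes, the E-box was present in 2 of 7 kept and 1 of 9 lost genes, and the replication-related element in 1 of 7 kept and 2 of 9 lost genes. The TATA box was present in 1 of 7 kept and 4 of 9 lost genes, and the initiator core in 3 of 7 and 4 of 9. Shown as examples are 1 kept and 1 lost gene with a replication-related element and 1 lost gene with an E-box, with every match to any of the 5 motifs in capitals. *l(1)10Bb* (kept) is from chrX:11325279-11325458, minus strand, *Wdr37* (lost) from chr3R:18402687-18402866, minus strand, and *Ing3* (lost) from chrX:18653062-18653241, minus strand, each written 5′ to 3′ in the direction of the gene.
l(1)10Bb: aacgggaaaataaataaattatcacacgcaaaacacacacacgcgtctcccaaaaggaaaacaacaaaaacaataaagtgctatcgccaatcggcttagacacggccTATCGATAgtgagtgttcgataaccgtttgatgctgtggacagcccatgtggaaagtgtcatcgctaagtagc
Wdr37: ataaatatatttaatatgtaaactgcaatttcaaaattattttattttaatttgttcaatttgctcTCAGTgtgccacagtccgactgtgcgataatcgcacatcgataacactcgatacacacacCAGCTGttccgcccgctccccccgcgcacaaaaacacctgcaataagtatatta
Ing3: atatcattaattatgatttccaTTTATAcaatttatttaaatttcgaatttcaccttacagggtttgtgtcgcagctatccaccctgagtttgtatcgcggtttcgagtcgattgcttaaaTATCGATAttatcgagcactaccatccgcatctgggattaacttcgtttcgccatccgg
A match describes the letters of the window and not a bound factor.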

How the data were processed

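The authors trimmed reads with cutadapt, aligned them to dm6 with bowtie2, removed multimapping reads with samtools and duplicates with Picard, and called broad regions against input with MACS2 (2.1.1.20160309), separately for each replicate. The versions in the labels (cutadapt 1.10, Picard 2.11.0) are taken from the submitters' processing notes, and the study's methods name later versions of both. Each deposited list has 9 columns: coordinates and name, the fold enrichment ratio over input deposited by the authors, and the −log10 p and −log10 q values deposited by the authors, as averages over the region. The lists hold no reads, so depth is unknown and neither a counting interval nor the count-based test of the study could be had.

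Gene models were those of Ensembl release 115, without transposable elements. Coverage used columns 1 to 3 only. Fold, p and q served to describe and filter lists. The code was tested on simulated lists. Genes were named by a rule: the depleted genes and *Socs36E*, 10 kept and 10 lost genes of 1 kb or more overlapping no other gene with mock lists within 15 points, the extremes of called lists, and the 5 longest genes covered to 80% in both AGO2 KD lists. Genes given as list examples lie outside it and were chosen after their values were seen. The members, lists and measures were chosen with earlier results of these data known. Genes are not independent replicates, so no test across genes was made. Alternatives changed the gene set, region threshold, covered length, gaps, like-gene bins, margin and replicates. Python 3.11.15, numpy 2.4.6, pandas 2.3.3 and matplotlib 3.10.9 were used.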

Additional observations from a re-analysis of the deposited data

How the results depend on the processing

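The retained share was 20.6% to 48.5% and the last-minus-first difference −35.6 to −29.8 points when single lists were left out, and the reach difference was −728.0 to −439.75 bp; none changed direction. Equal covered length moved that difference to −20.5 points and the reach difference to −296.5 bp. Kept genes numbered 142 and lost genes 124 among genes overlapping no other, where 133 genes stayed. At equal covered length they numbered 40 and 142, and 177 stayed. Margins of 10 and 30 points gave 587 and 113 kept and 654 and 0 lost genes. No gene was lost at a −log10 q of at least 2 or with the first 500 bp left out. Leaving out single lists gave 250 to 1029 kept, 306 to 1007 lost and 322 to 829 stayed genes. The number of gene lists that met the call, 2, was 4 without overlapping genes or with a mock coverage of at least 25%, 1 at the stricter q or among genes of like fold, 6 at equal covered length, with like length or without the first 500 bp, and 6 to 14 with single lists left out. The difference with gene length reversed to −0.13 at equal covered length, to −0.32 at like fold and to −0.68 without AGO2 KD 1, within a range of −0.68 to 4.49 over lists left out. Of 376 list medians under alternatives 326 moved by less than the spread between replicates, the SD of the 2 AGO2 KD medians. That spread was 48.3 points for cytoplasmic ribosomal proteins, so a fall from 36.1 to 6.85 points at equal covered length counted among the 326. The count is thus no measure of stability. Of the 376 medians 52 had the other sign, 10 of them with a larger move. Splicing regulators, for example, had 10.2 points and −13.2 at equal covered length, and hemocyte genes 4.76 and −2.60 at like fold.

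Replicate numbers are shared by the groups, but nothing says that they pair cultures, and deviations of AGO2 KD 1 and mock 1 from their group means correlated at −0.0399 over 5874 genes. With the replicate block the reach difference was −579.5 bp as well, from −739 and −420 bp within the pairs (exact sign-flip permutation test, two-sided p = 0.5, the smallest that 2 pairs can give). The lower −log10 p at like fold in AGO2 KD limits every count here.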

Other observations

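Fold enrichment, which the coverage does not use, was compared at gene starts, as a choice made after the values were seen. A region covered the start in all 4 lists in 2693 genes, but the median region of a list was wider in mock. The comparison was therefore kept to 271 regions, over 368 starts, whose widths differed by at most 1.5 times over the 4 lists, and folds were ranked within each list. The 8 regions that gained most in rank in AGO2 KD over mock lay at *ec*, *CG5004*, *bab2*, *fz*, *Sema1b*, *Glut4EF*, *CG5535* and *Socs36E*. At *ec*, which encodes a ubiquitin protease-like protein of eye development, the fold was 8.30 and 5.93 in AGO2 KD, against 3.56 and 3.25 in mock, in regions of 440 and 625 bp against 494 and 429 bp. At *fz*, the Frizzled receptor of planar cell polarity, it was 6.69 and 5.60 in AGO2 KD, against 4.23 and 3.70 in mock. At *bab2*, a BTB transcription factor of leg and ovary development, it was 5.40 and 4.97 in AGO2 KD, against 3.63 and 3.57 in mock. At *Socs36E* it was 3.97 and 3.84 in AGO2 KD, against 2.68 and 2.78 in mock, in regions of 2588 and 2816 bp against 2598 and 2560 bp. These regions were picked for their gain in rank, so a separation of the groups in fold follows largely from that choice. No test was made.

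The 8 regions that lost most in rank lay at *RpS4*, *VhaPPA1-1*, *Mettl4*, *Hsp68*, *Prosalpha5*, *CaBP1*, *GstE10* and *tefu*. Some regions cover several gene starts, with 3 at *GstE10* and 2 each at *RpS4*, *Mettl4* and *tefu*. The region at *tefu* was 4796 and 5514 bp wide in AGO2 KD, while the gene was covered to 1.69% and 2.62%, so it lay mostly outside that gene. At *RpS4* the fold was 3.503 and 3.61 in AGO2 KD, against 4.76 and 5.01 in mock, in regions of 3104 and 3241 bp against 3964 and 3719 bp. At *Hsp68*, a heat shock protein of the Hsp70 family, it was 3.37 and 2.98 in AGO2 KD, against 4.28 and 3.80 in mock. At *Prosalpha5*, of the proteasome core, it was 2.96 and 2.76 in AGO2 KD, against 3.60 and 3.93 in mock. The gene body of *RpS4* and *Hsp68* was covered to 100% in all 4 lists. Whether fold at narrow and wide regions scales alike between libraries was not tested.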
